A study of Mus musculus with 12 samples.

Results

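The non-fibrillar collagens are the collagen genes whose products do not build the major banded fibrils of connective tissue. Members were the protein-coding genes with a mouse symbol of the form Col, number, a, number, after leaving out Col1a1, Col1a2, Col2a1, Col3a1, Col5a1, Col5a2, Col5a3 and Col11a1. This gave 36 genes of the 55401 in the deposited table, of which 22 reached a mean of at least 1 FPKM, a level scaled to transcript length and library depth, over the 12 samples and were tested. By family, 6 members encoded the type IV chains of the basement membrane network, 2 were multiplexins, 3 short-chain network collagens, 7 beaded collagens, 9 fibril-associated collagens with interrupted triple helices (FACIT), 1 the anchoring fibril collagen, 4 transmembrane collagens and 1 was Col26a1. The rule also kept Col11a2, Col24a1 and Col27a1, which encode fibril-forming chains, and these are given separately.

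RNA of C57BL/6 mice aged 6 weeks was sequenced, with 3 biological replicates in each of 4 groups: wild-type (WT) mice on day 0, Cthrc1-/- mice on day 0, WT mice on day 7 and Cthrc1-/- mice on day 7. The tissue of every library was labelled dermis, and the series compared the genotypes in a model with paired wounds of equal size. Cthrc1 encodes a secreted protein with a short collagen-like triple helix, and it is lacking in the Cthrc1-/- mice (called knockout below). The labels do not say how the allele was made, and they do not say whether libraries were pooled from several mice. Basement membranes are sheets of type IV collagen and laminin under epithelia and around vessels, fat and muscle cells. In skin, the transmembrane collagen XVII and the anchoring fibrils of collagen VII hold the epidermis to the dermis, type VI filaments run between cells and the fibrillar matrix, and FACIT collagens sit on the surface of fibrils.

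Libraries held between 48329668 and 76938132 gene counts, so that a count of 3 was worth 0.0390 to 0.0621 CPM, counts scaled to the library's total. Cthrc1 was at 21.1 to 27.0 FPKM in WT on day 0 and 74.0 to 106 on day 7, against 0 to 0.151 in the 6 knockout libraries. Markers of dermal fibroblasts were present in every library, but so were those of basal and suprabasal keratinocytes, whose summed FPKM (6 genes) was 9685 to 10480 in WT and 4205 to 9890 in knockout on day 0, and 2315 to 9785 in WT and 7178 to 7812 in knockout on day 7. The summed fibroblast markers (6 genes) were at 873 to 940 FPKM in WT on day 0 and at 605, 347 and 140 in knockout replicates 1 to 3. The summed markers of the hair follicle inner root sheath and matrix (6 genes) were at 2.62 to 4.78 in WT on day 0, at 206, 4453 and 10770 in knockout on day 0, at 1581 to 3680 in WT on day 7 and at 464 to 4936 in knockout on day 7. None of these 3 lists had a gene at 0 in a whole group. Knockout day 0 replicate 3 thus stood lowest for fibroblast and highest for hair follicle markers. WT day 7 replicate 1 also stood apart, with neutrophil markers (4 genes) summing to 4809 FPKM against 739 and 38.6 in the other replicates and 5.81 to 10.5 in WT on day 0. By edgeR, 6 of 6 hair follicle markers rose in the knockout on day 0 and in WT over time, where 4 of 4 neutrophil and 3 of 4 melanocyte markers also rose and 4 adipocyte markers fell. Of the fibroblast, endothelial, macrophage and skeletal muscle markers 0 were called in any comparison, and of the keratinocyte, pericyte, Schwann and chondrocyte lists at most 2 in a comparison. In bulk tissue, fewer cells of a type and less RNA per cell cannot be told apart, and the part of cell composition in the results below was not tested.

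**Figure D1:**
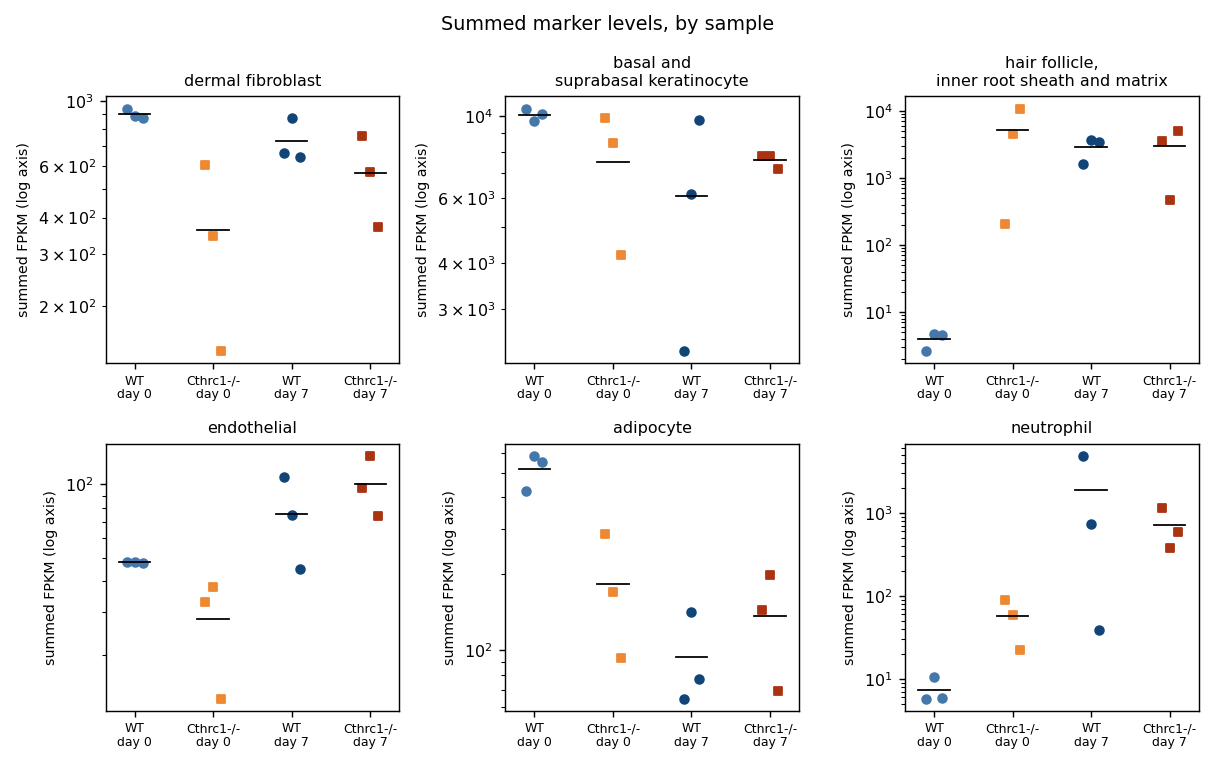
Summed FPKM of 6 fixed marker lists (log axes) in each of the 12 samples, with a bar at the group mean. Knockout day 0 replicates spread from 140 to 605 FPKM for fibroblast markers and from 206 to 10770 for hair follicle markers, and the 3 WT day 0 replicates lie close together.

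At the level of the whole family, the summed FPKM of the 36 members was 781 to 848 in WT on day 0, 215 to 597 in knockout on day 0, 788 to 1132 in WT on day 7 and 807 to 847 in knockout on day 7. Col17a1, with a mean of 162 FPKM over the 12 samples, and Col6a1, with 171, were the most abundant members. Transmembrane collagens, mostly Col17a1, made up 31.4% to 36.5% of the summed FPKM in the 6 day 0 samples and 5.00% to 22.1% in the 6 day 7 samples. Beaded collagens made up 17.8% to 34.4% on day 0 and 38.1% to 50.3% on day 7. The ranges of the 2 days were thus separate for both shares. These shares were chosen for display after their values were seen and carry no test.

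**Figure D2:**
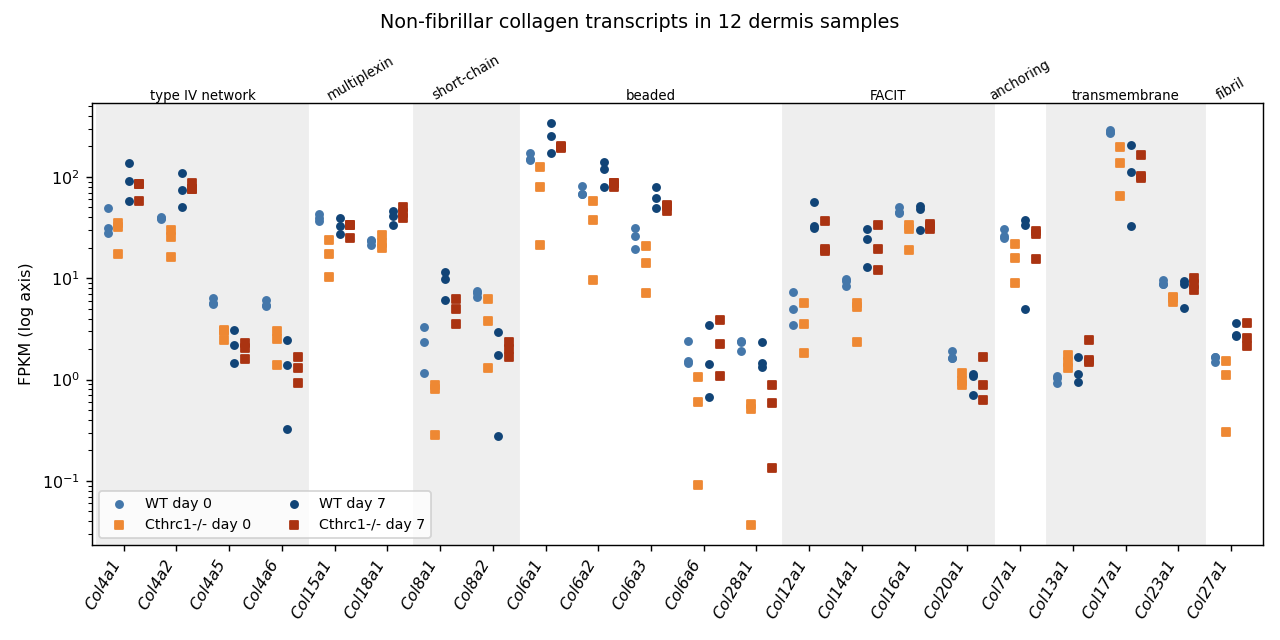
FPKM (log axis) of the 22 tested members in the 12 samples, ordered by family. Mean levels over all samples run from 1.20 for Col20a1 to 171 for Col6a1, and most knockout day 0 squares lie under the WT day 0 circles.

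Differences were tested with edgeR on the counts of all 14313 genes with a mean of at least 1 FPKM, and a gene was called at a Benjamini-Hochberg adjusted p under 0.05. Between genotypes on day 0, 2 of 22 members fell in the knockout and 0 rose, where 5.78% of all genes tested were called (3.51% higher, 2.26% lower). The median log2 difference was -0.96 over the members and -0.05 over all genes tested. Below 0 lay 21 of 22 members and 7667 of the 14313 genes tested. Of the 22, 17 had a mean of at least 1 FPKM in every group. Under 1 in knockout on day 0, and tested through higher levels in other groups, were Col6a6 (0.586), Col8a1 (0.657), Col27a1 (0.977) and Col28a1 (0.375). Among members not tested for low FPKM, a fit with no filter put Col6a4, Col6a5, Col9a2, Col10a1 and Col11a2 above 0 and the others below. FPKM ranges of the genotypes did not overlap for 16 members that were lower and 1 that was higher in the knockout, where 19.8% and 21.5% of all genes did so. Without knockout day 0 replicate 3, 0 members were called, and the median was still below 0, as it was in every leave-one-out fit (-1.34 to -0.64). The count was also 0 without any of the 3 WT day 0 libraries, without knockout day 0 replicate 2 or without knockout day 7 replicate 1. It was 1 without WT day 7 replicate 2 or 3 or knockout day 7 replicate 2 or 3, 5 without WT day 7 replicate 1 and 7 without knockout day 0 replicate 1, while the share of all genes called ran from 0.126% to 15% over these fits.

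On day 7 the genotypes gave 0 called members of 22 with edgeR, and 0 at an unadjusted p under 0.05, where 0.021% and 5.46% of all genes passed these thresholds. DESeq2 called 0 members and 0.436% of all genes, and limma 0 members and 0.0559% or 0.0349% of all genes with a pseudocount of 1 or 0.1. The median log2 difference was -0.17 over the members and -0.00546 over all genes. FPKM ranges did not overlap for 1 lower member, Col28a1, and for 0 higher members, against 2.67% and 6.46% of all genes. Col28a1 passed the filter on mean FPKM through its WT levels.

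From day 0 to day 7 in WT, 2 members rose and 2 fell, where 13.1% of all genes were called (6.04% higher, 7.1% lower). The medians were -0.03 over members and -0.00185 over all genes. Ranges did not overlap for 8 members that were higher and 5 that were lower on day 7, against 29.8% and 14.1% of all genes. FPKM does not carry the scaling of the edgeR test, and of all genes more were higher than lower by range, but not by call. With scaling to the total count, which moved the median of all genes to 0.20, 6 members rose and 2 fell, where 15.5% of all genes were called. Without WT day 7 replicate 1 the count was 3. It was 2 without any WT day 0 library or WT day 7 replicate 2, 8 without WT day 7 replicate 3 and 9 without knockout day 0 replicate 3, with 3.68% to 21% of all genes called over the leave-one-out fits.

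In the knockout, 2 members rose and 0 fell from day 0 to day 7, where 1.46% of all genes were called (0.859% higher, 0.601% lower). The medians were 0.73 over members and -0.0128 over all genes. Ranges did not overlap for 13 members that were higher, against 21.5% of all genes, and for 1 that was lower, against 4.99%. With scaling to the total count, which moved the median of all genes to 0.16, 6 rose and 0 fell, where 5.22% of all genes were called. The count was 3 without knockout day 0 replicate 3, 6 without WT day 7 replicate 1 and 4 without WT day 7 replicate 3. It was 1 without knockout day 0 replicate 1, and 0 without any WT day 0 library, any knockout day 7 library, knockout day 0 replicate 2 or WT day 7 replicate 2, with 0.0349% to 6.36% of all genes called over the leave-one-out fits.

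The test of whether the change over time differed between genotypes called 0 of 22 members, where 0.014% of all genes were called. The median difference (knockout minus WT) was 0.80 over the members and 0.02 over all genes. Above 0 lay 21 of 22 members and 7377 of the 14313 genes tested. Members not tested for low FPKM were divided in a fit with no filter. Of these, Col6a4, Col6a5, Col9a2, Col10a1, Col11a2, Col24a1 and Col26a1 lay below 0 and the others above. DESeq2 called 0 members and 4.79% of all genes, and limma 0 members and 0.0279% or 0.00699% of all genes with a pseudocount of 1 or 0.1. At an unadjusted p under 0.05 there were 3, where 15.1% of all genes passed, and all 3 had the larger value in the knockout, as 7.22% of all genes did. These were Col23a1 with a log2 difference of 0.78 (edgeR adjusted p = 0.239), Col4a5 with 0.93 (adjusted p = 0.243) and Col15a1 with 1.09 (adjusted p = 0.293). The comparisons share samples: the day 0 knockouts enter both the genotype comparison on day 0 and the knockout time course, and the WT day 0 samples enter both that genotype comparison and the WT time course. All 12 samples enter the difference between the time courses. It equals the genotype difference on day 7 minus that on day 0, so it is not separate from the day 0 result.

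**Figure D3:**
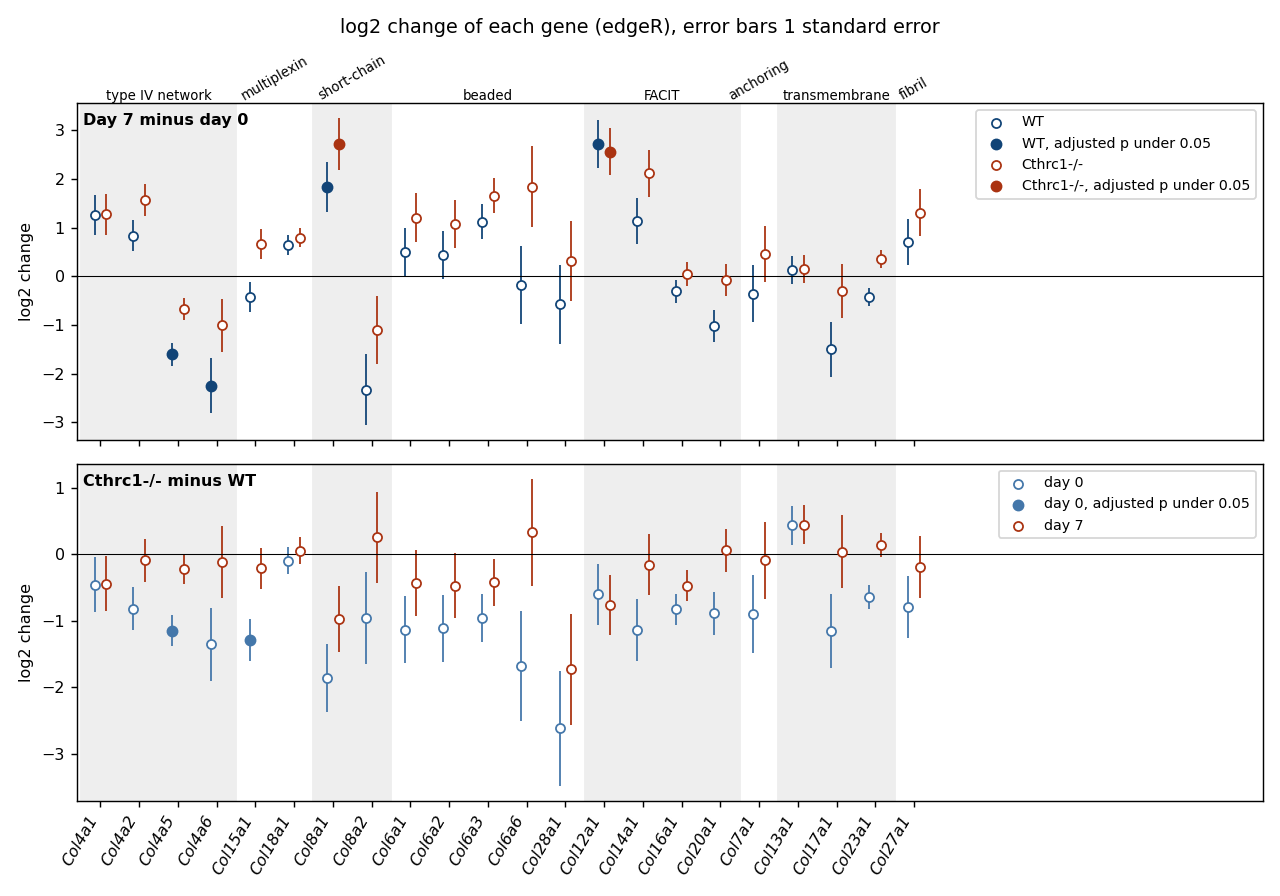
log2 change of the 22 tested members from day 0 to day 7 in each genotype (upper panel) and between genotypes on each day (lower panel), with bars of 1 standard error. Filled points passed an adjusted p of 0.05: 4 for WT over time, 2 for knockout over time, 2 between genotypes on day 0 and 0 on day 7.

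The tested type IV chains did not move together over time, while all 4 lay below 0 between genotypes on each day. The chains were not tested against each other. Col4a1 and Col4a2 encode the chains found in nearly all basement membranes, and their genes start head to head 21 bases apart on chromosome 8. Col4a5 and Col4a6 encode chains that join in the basement membranes of skin epithelium and of smooth muscle, and their genes start head to head 1309 bases apart on chromosome X. Col4a5 spans chrX:141475385-141689234 on the plus strand and Col4a6 chrX:141165403-141474076 on the minus strand (GRCm38). The sequences just upstream of the 2 starts are shown because both genes fell together from day 0 to day 7 in WT. They are RefSeq promoter entries of GRCm38.p6, chrX:141475169-141475384 (plus strand) for Col4a5 and chrX:141474077-141474326 (minus strand) for Col4a6, printed 5′ to 3′ with the motif letters below in capitals.
Col4a5: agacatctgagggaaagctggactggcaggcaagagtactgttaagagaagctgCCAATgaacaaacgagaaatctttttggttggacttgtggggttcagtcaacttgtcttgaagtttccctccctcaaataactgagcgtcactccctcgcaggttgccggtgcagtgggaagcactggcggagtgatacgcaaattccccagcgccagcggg
Col4a6: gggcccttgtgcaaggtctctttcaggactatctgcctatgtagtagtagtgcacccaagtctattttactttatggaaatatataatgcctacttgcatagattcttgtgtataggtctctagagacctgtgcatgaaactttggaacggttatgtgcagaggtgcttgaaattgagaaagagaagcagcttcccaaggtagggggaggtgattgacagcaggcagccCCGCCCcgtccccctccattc
The capitals mark matches on either strand to TATAAA (the TATA box), CCAAT (the CCAAT box), GGGCGG (the GC box) or TGACTCA (an AP-1 site). The Col4a5 stretch, cut to 216 bases where an annotated exon begins, holds 1 CCAAT box, and the 250 bases of Col4a6 hold 1 GC box, read on the opposite strand. Of 32851 RefSeq promoters, 33.8% hold the CCAAT box and 32.7% the GC box in the 250 bases before the start, with 12.4% for the TATA box and 4.46% for the AP-1 site. In the 33 windows of the 30 members with an entry, 10 held the CCAAT box, 18 the GC box, 4 the TATA box and 1 the AP-1 site. A match describes the letters only.

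Col4a5 was at 6.36, 5.59 and 5.70 FPKM in WT on day 0 and at 3.08, 3.01 and 2.45 in knockout on day 0. On day 7 it was at 1.47, 2.19 and 3.06 in WT and at 2.06, 2.29 and 1.61 in knockout. WT day 0 stood above all 9 other samples. On day 0 Col4a5 fell in the knockout relative to WT, with a log2 difference of -1.15 (SE 0.228, edgeR adjusted p = 0.0312), and it fell in WT from day 0 to day 7 by a log2 change of -1.605 (SE 0.231, adjusted p = 0.00544). In the knockout the change over time was -0.68 (SE 0.227, edgeR adjusted p = 0.150), with ranges that did not overlap. The WT fall held in every alternative (adjusted p up to 0.0265 with edgeR, DESeq2 or limma). The day 0 call was lost (edgeR adjusted p 0.0549 to 0.103) without any WT day 0 library, knockout day 0 replicate 2 or 3, or knockout day 7 replicate 1. It was also lost with no filter on low values (edgeR adjusted p = 0.0538) and when only the groups compared were fitted (0.0792).

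Col4a6 was at 5.31, 5.43 and 6.06 FPKM in WT and 3.01, 2.55 and 1.41 in knockout on day 0. On day 7 it was at 0.326, 1.40 and 2.45 in WT and 1.29, 1.68 and 0.937 in knockout. WT day 0 again lay above every other sample, and WT day 7 replicate 1 was the lowest of the 12. Col4a6 fell in WT over time by a log2 change of -2.25 (SE 0.564, edgeR adjusted p = 0.0298). The knockout values were -1.36 against WT on day 0 (edgeR adjusted p = 0.140) and -1.01 over time (adjusted p = 0.361). The WT call was lost (edgeR adjusted p 0.0701 to 0.0827) without any WT day 0 library or without WT day 7 replicate 2. It was also lost when only the groups compared were fitted (edgeR adjusted p = 0.0653) and with a block for the replicate number (0.0536).

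Col4a1 was at 28.3, 49.3 and 31.2 FPKM in WT and 31.9, 35.2 and 17.2 in knockout on day 0, and at 139, 91.8 and 57.4 in WT and 86.2, 57.8 and 85.9 in knockout on day 7. Both genotypes had higher values on day 7 without overlap, and the genotypes overlapped on each day. Its log2 change over time was 1.26 in WT (edgeR adjusted p = 0.0700) and 1.27 in the knockout (adjusted p = 0.144), neither of which passed. DESeq2 and limma called both changes, and total-count scaling called that in WT. The fits with no filter, with only the groups compared or with a block for the replicate number called neither. Col4a2 was at 39.3, 38.6 and 40.6 FPKM in WT and 25.7, 29.7 and 16.3 in knockout on day 0, and at 110, 74.8 and 50.9 in WT and 75.4, 87.5 and 75.4 in knockout on day 7. All 6 day 7 samples lay above all day 0 samples, with a log2 change of 0.84 in WT (edgeR adjusted p = 0.108) and 1.56 in the knockout (adjusted p = 0.0514). DESeq2, limma with a pseudocount of 0.1 and total-count scaling called both Col4a2 changes. Limma with a pseudocount of 1, a block for the replicate number and counts divided by 4 called the knockout change only. The fits with no filter or with only the groups compared called neither. Reads in the 22 bases where the 2 genes overlap cannot be assigned without the strand.

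Within samples, Col4a5 and Col4a6 together came to 12.5% to 17.3% of Col4a1 and Col4a2 in WT on day 0 and to 8.56% to 11.5% in knockout on day 0. On day 7 this share was 0.724% to 5.09% in WT and 1.58% to 2.73% in knockout. The 4 ranges were separate except for the 2 on day 7. Col4a3 and Col4a4, the chains of the glomerular basement membrane, had the same order of ranges at lower levels: 2.95% to 3.30%, 1.34% to 2.11%, 0.175% to 0.988% and 0.406% to 0.777%. Neither reached a mean of 1 FPKM (0.395 and 0.892). The shares were set up after the values were seen, so they have no test. Summed keratinocyte markers in the same groups are given above. Of the 6 genes in that list, 1 was called in WT over time, Krt15 (log2 -3.19, edgeR adjusted p = 0.0173). Krt5 (-1.245, edgeR adjusted p = 0.05445), Itga6 (-1.02, adjusted p = 0.0558) and Krt14 (-0.15, adjusted p = 0.788) were not called. The part of keratinocyte content in the Col4a5 and Col4a6 values was not tested.

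**Figure D4:**
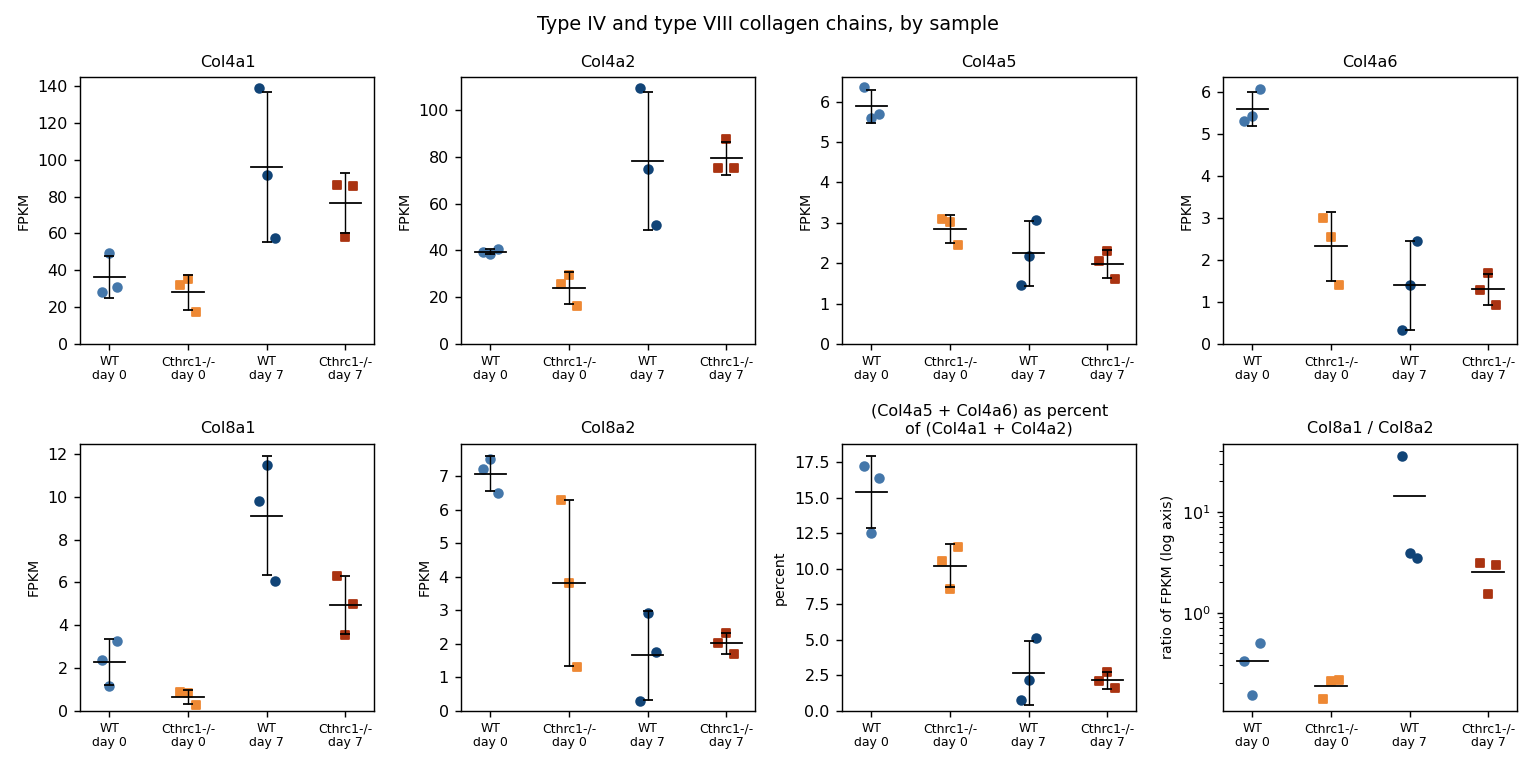
FPKM of type IV and type VIII chains and 2 within-sample ratios in the 12 samples, with a bar at the mean and 1 SD where drawn (the ratio Col8a1/Col8a2 has the mean only, on a log axis). Col4a1, Col4a2 and Col8a1 are higher on day 7 and Col4a5, Col4a6 and Col8a2 highest in WT on day 0.

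The short-chain collagens Col8a1 and Col8a2 encode the chains of collagen VIII, a network former of vessel walls and of the corneal endothelium's basement membrane. Over time Col8a1 rose in both genotypes, and Col8a2 did not pass the edgeR test in either. Col8a1 lies at chr16:57624258-57754737 on the minus strand, and its RefSeq promoter entry at chr16:57754738-57754987 (GRCm38.p6, minus strand) is shown because it rose in both genotypes.
Col8a1: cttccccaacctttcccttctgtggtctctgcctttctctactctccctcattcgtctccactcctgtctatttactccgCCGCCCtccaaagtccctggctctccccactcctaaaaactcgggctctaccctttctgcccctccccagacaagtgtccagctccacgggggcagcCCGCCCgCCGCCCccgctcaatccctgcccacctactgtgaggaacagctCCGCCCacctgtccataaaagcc
Capitals mark 4 matches to the GC box, all read on the opposite strand. The letters of the other motifs are not in this window.

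Col8a1 was at 2.37, 1.15 and 3.28 FPKM in WT and 0.884, 0.804 and 0.281 in knockout on day 0, and at 9.82, 11.5 and 6.07 in WT and 6.29, 3.55 and 5.00 in knockout on day 7. Ranges did not overlap between the days in either genotype, and the genotypes were separate on day 0 but not on day 7. It rose by a log2 change of 1.83 in WT (SE 0.511, edgeR adjusted p = 0.0425) and of 2.72 in the knockout (SE 0.531, adjusted p = 0.0428), and the difference between these, 0.89, did not pass (adjusted p = 0.555). Between genotypes the value was -1.865 on day 0 (edgeR adjusted p = 0.0598) and -0.97 on day 7 (adjusted p = 0.931). Leave-one-out fits lost the WT call (edgeR adjusted p 0.0542 to 0.126) without any WT day 0 or knockout day 7 library, knockout day 0 replicate 2 or WT day 7 replicate 1 or 2. They lost the knockout call (edgeR adjusted p 0.0532 to 0.131) without any WT day 0 or knockout day 7 library, knockout day 0 replicate 1 or 2 or WT day 7 replicate 2. The WT call was also lost with no filter on low values (edgeR adjusted p = 0.0587) and with a block for the replicate number (0.0705). When only the groups compared were fitted, both calls were lost (edgeR adjusted p = 0.0502 in WT and 0.0729 in the knockout).

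Col8a2 was at 7.21, 7.52 and 6.50 FPKM in WT and 6.28, 3.82 and 1.32 in knockout on day 0, and at 0.275, 2.92 and 1.76 in WT and 2.02, 2.33 and 1.68 in knockout on day 7. WT day 7 lay below WT day 0 without overlap, while the knockout ranges overlapped, with replicate 3 of day 0 at the lowest level of that genotype. Its log2 change was -2.33 in WT (edgeR adjusted p = 0.0578) and -1.11 in the knockout (adjusted p = 0.436). DESeq2 and limma called the WT fall. Total-count scaling and the fits with no filter, with only the groups compared or with a block for the replicate number did not. The ratio of Col8a1 to Col8a2 was 0.141 to 0.504 in the 6 day 0 samples and 1.53 to 35.7 in the 6 day 7 samples. Col8a2 thus exceeded Col8a1 in FPKM in every day 0 sample and was below it in every day 7 sample. The ratio was chosen after its values were seen. Endothelial markers (5 genes, none at 0 in a whole group) summed to 47.6 to 48.25 FPKM in WT and 13.3 to 38.1 in knockout on day 0, and to 45.2 to 107.5 in WT and 74.0 to 131 in knockout on day 7. Their part in the collagen VIII values was not tested.

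The multiplexins Col15a1 and Col18a1 encode proteoglycan collagens of basement membrane zones, and Col18a1 is the source of endostatin. Col15a1, at chr4:47208161-47313167 on the plus strand, was at 36.9, 42.7 and 39.5 FPKM in WT and 23.8, 17.4 and 10.3 in knockout on day 0, and at 39.4, 33.2 and 27.3 in WT and 33.6, 33.5 and 25.0 in knockout on day 7. The knockout stood below WT on day 0 without overlap, and the genotypes overlapped on day 7. The day 0 difference was -1.29 on the log2 scale (SE 0.317, edgeR adjusted p = 0.0454), and on day 7 it was -0.21 (adjusted p = 0.997). The day 0 call was lost (edgeR adjusted p 0.0543 to 0.137) without any WT day 0 or knockout day 7 library, knockout day 0 replicate 2 or 3, or WT day 7 replicate 2 or 3. It was also lost with no filter on low values (edgeR adjusted p = 0.0771) and when only the groups compared were fitted (0.0946). The summed adipocyte markers, of which 4 were tested, were at 287, 169 and 92.8 FPKM in the knockout day 0 replicates against 424 to 582 in WT. These replicates had the same rank for Col15a1 and for 8 of the 12 marker lists, those of adipocytes, fibroblasts and keratinocytes among them, and the part of any list was not tested.

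Col18a1 was at 24.1, 21.2 and 23.4 FPKM in WT and 22.2, 26.7 and 20.1 in knockout on day 0, and at 46.3, 40.8 and 33.7 in WT and 39.0, 51.0 and 43.8 in knockout on day 7. The genotypes overlapped on both days, and every day 7 sample lay above every day 0 sample. Its log2 change over time was 0.64 in WT (SE 0.201, edgeR adjusted p = 0.0590) and 0.80 in the knockout (SE 0.201, adjusted p = 0.0778). DESeq2, limma and total-count scaling called both changes. The fits with no filter, with only the groups compared or with a block for the replicate number called neither. On day 0 the genotype value was -0.09, the smallest in size of the 22 members.

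The type VI chains Col6a1, Col6a2 and Col6a3 assemble in a fixed combination into beaded filaments that link cells with the interstitial matrix. Col6a1 was at 173, 150.5 and 147.5 FPKM in WT and 124, 79.5 and 21.2 in knockout on day 0, and at 173, 342 and 252 in WT and 204, 192 and 196 in knockout on day 7. Knockout day 0 lay below the other groups, with replicate 3 far below, and WT overlapped between the days. Its log2 differences were -1.14 for the genotype on day 0 (edgeR adjusted p = 0.170), 0.50 for WT over time (adjusted p = 0.521) and 1.20 for the knockout over time (adjusted p = 0.245). Col6a2 kept a near constant proportion to Col6a1: the ratio of Col6a1 to Col6a2 was 2.12 to 2.46 in all 12 samples, while the level of Col6a1 ranged from 21.2 to 342 FPKM. The ratio of Col6a3 to Col6a2 varied more, from 0.288 to 0.734.

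Col6a3 was at 31.3, 19.5 and 26.4 FPKM in WT and 20.6, 14.2 and 7.09 in knockout on day 0, and at 50.0, 80.2 and 62.1 in WT and 52.0, 46.1 and 52.4 in knockout on day 7. Day 7 was above day 0 without overlap in both genotypes, with log2 changes of 1.12 in WT (edgeR adjusted p = 0.0632) and 1.66 in the knockout (adjusted p = 0.0560). DESeq2, limma and total-count scaling called both changes, and the fit of only the groups compared called that in WT. The fits with no filter or with a block for the replicate number called neither. Col6a6, a further chain that can take the place of the Col6a3 product, had group means of 1.81, 0.586, 1.86 and 2.41 FPKM in the order WT day 0, knockout day 0, WT day 7 and knockout day 7, and its values were not called in any comparison.

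Col28a1 encodes a beaded-type collagen with von Willebrand factor A domains, known from peripheral nerve. It was at 2.34, 1.93 and 2.41 FPKM in WT and 0.574, 0.514 and 0.0370 in knockout on day 0, and at 1.33, 2.33 and 1.46 in WT and 0.588, 0.880 and 0.133 in knockout on day 7. All 6 knockout samples lay below all 6 WT samples. Its group means were 2.23 (day 0) and 1.70 (day 7) FPKM in WT, against 0.375 and 0.534 in knockout. Col28a1 thus passed the filter of 1 FPKM through the WT samples, and the separation is given as a description. The log2 differences between genotypes were -2.62 on day 0 (SE 0.863, edgeR adjusted p = 0.0894) and -1.73 on day 7 (SE 0.835, adjusted p = 0.921), neither of which passed. DESeq2 and limma with a pseudocount of 1 called the day 0 difference. Limma with a pseudocount of 0.1, total-count scaling and a block for the replicate number did not. The counts behind these values ran from 10 to 872. Schwann cell markers (4 genes, none at 0 in a whole group) summed to 58.1 to 60.7 FPKM in WT and 17.1 to 39.2 in knockout on day 0, and to 17.2 to 47.05 in WT and 19.25 to 46.3 in knockout on day 7, and their part in the Col28a1 values was not tested.

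Among FACIT collagens, Col12a1 had the largest change of all tested members over time in WT. It encodes a collagen on the fibrils of dense connective tissue under load, and its gene lies at chr9:79598991-79718831 on the minus strand. Col12a1 was at 7.40, 3.49 and 5.01 FPKM in WT and 3.56, 5.69 and 1.83 in knockout on day 0, and at 31.5, 56.0 and 32.5 in WT and 19.3, 18.5 and 36.8 in knockout on day 7. The lowest day 7 value, 18.5, was above the highest day 0 value, 7.40, across both genotypes, and the genotypes overlapped on each day. It rose by a log2 change of 2.72 in WT (SE 0.487, edgeR adjusted p = 0.00928) and of 2.565 in the knockout (SE 0.484, adjusted p = 0.0394), and the difference between these was -0.16 (adjusted p = 0.924). The WT rise held in every alternative (adjusted p up to 0.0452 with edgeR, DESeq2 or limma). The knockout call was lost (edgeR adjusted p 0.0539 to 0.108) without any WT day 0 or knockout day 7 library, knockout day 0 replicate 1 or 2, or WT day 7 replicate 2. It was also lost when only the groups compared were fitted (edgeR adjusted p = 0.0862) and with a block for the replicate number (0.0519).

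Col14a1, a FACIT collagen of dermal fibrils, was at 9.80, 8.31 and 9.46 FPKM in WT and 5.72, 5.20 and 2.33 in knockout on day 0, and at 24.6, 30.3 and 13.1 in WT and 33.7, 19.3 and 12.1 in knockout on day 7. The day 0 ranges were separate between genotypes and below all day 7 values. Its log2 change over time was 1.13 in WT (edgeR adjusted p = 0.126) and 2.12 in the knockout (SE 0.481, adjusted p = 0.0622). DESeq2 called both changes. Limma, total-count scaling and a block for the replicate number called the knockout rise only. The fits with no filter or with only the groups compared called neither.

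Col16a1, a FACIT collagen found near the dermal-epidermal junction, was at 50.1, 45.3 and 43.9 FPKM in WT and 33.9, 30.7 and 18.9 in knockout on day 0, and at 29.8, 51.3 and 48.1 in WT and 30.6, 34.1 and 32.5 in knockout on day 7. The genotypes were separate on day 0 and overlapped on day 7, where WT replicate 1 was the lowest. The genotype differences were -0.83 on day 0 (SE 0.240, edgeR adjusted p = 0.0678) and -0.47 on day 7 (SE 0.239, adjusted p = 0.931). Col20a1 had group means of 1.74, 1.01, 0.978 and 1.06 FPKM in the same order, with WT day 0 above knockout day 0 and WT day 7 without overlap. Its log2 values were -0.89 for the genotype on day 0 (edgeR adjusted p = 0.114) and -1.03 for WT over time (adjusted p = 0.0629). The latter was called with DESeq2, and with edgeR when only the groups compared were fitted or without knockout day 7 replicate 2 or 3.

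**Figure D5:**
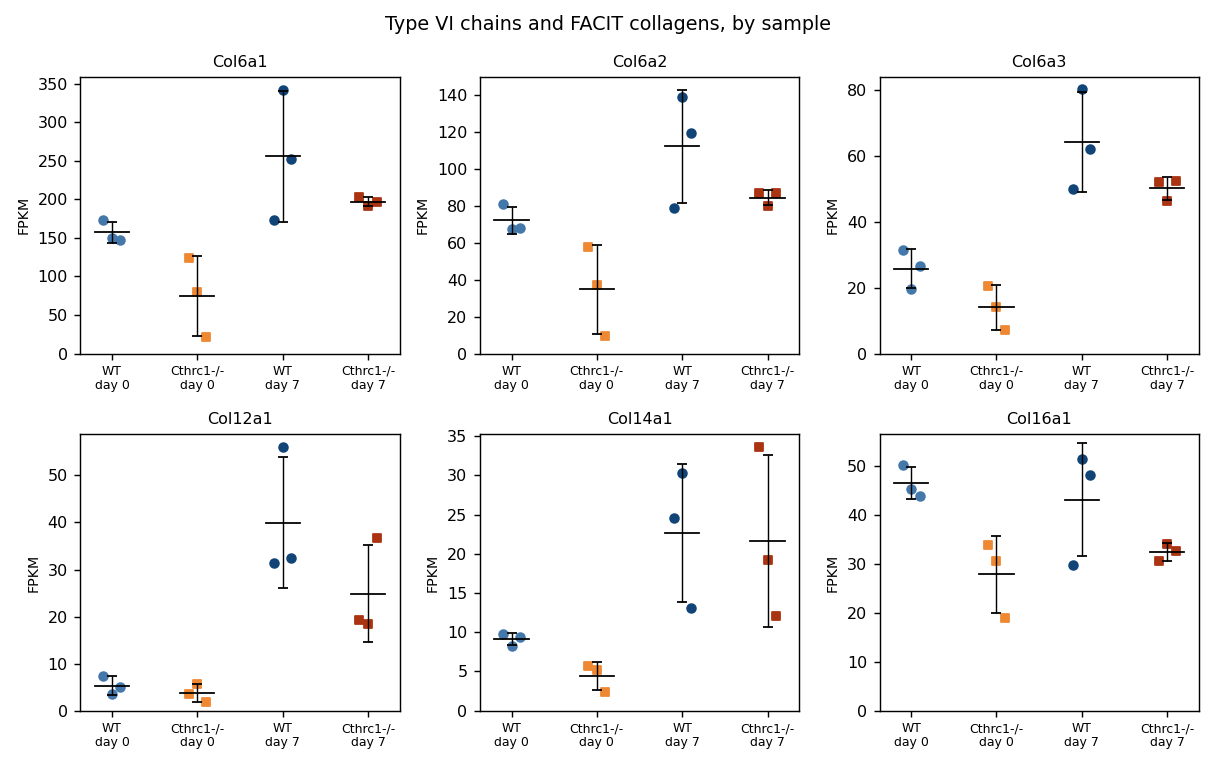
FPKM of 3 type VI chains and 3 FACIT collagens in the 12 samples, with bars at the mean and 1 SD (n = 3 per group). Col12a1 runs from 1.83 to 7.40 on day 0 and from 18.5 to 56.0 on day 7, while Col16a1 has overlapping ranges on the 2 days.

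Col7a1, which forms the anchoring fibrils, was at 30.6, 25.1 and 26.4 FPKM in WT and 21.9, 15.8 and 8.96 in knockout on day 0, and at 4.95, 33.7 and 37.3 in WT and 15.7, 27.3 and 29.4 in knockout on day 7. WT day 7 replicate 1 was the lowest of the 12 samples, and the group ranges overlapped except between the genotypes on day 0. No comparison called it, with log2 values of -0.90 for the genotype on day 0 (edgeR adjusted p = 0.332) and -0.35 for WT over time (adjusted p = 0.716).

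Col17a1, the transmembrane collagen of the hemidesmosomes of basal keratinocytes, was at 293, 270.1 and 275 FPKM in WT and 196, 136 and 64.8 in knockout on day 0, and at 32.6, 112 and 206 in WT and 96.6, 164 and 103 in knockout on day 7. WT day 0 stood above all other samples, and WT day 7 replicate 1 was the lowest of the 12. The log2 values were -1.155 for the genotype on day 0 (edgeR adjusted p = 0.202) and -1.50 for WT over time (adjusted p = 0.0969). Relative to Krt14, a keratin of basal keratinocytes, Col17a1 came to 11.4% to 13.4% in WT and 3.65% to 6.40% in knockout on day 0, and to 2.81% to 6.86% in WT and 2.79% to 5.61% in knockout on day 7. WT day 0 was separate from the other groups in this ratio and in that to Krt5, but not in the ratios to Krt15 or the integrin Itga6, further basal genes of the same marker list. Relative to Krt15, Col17a1 came to 11.5% to 12.85% in WT and 11.1% to 15.3% in knockout on day 0, and to 35.1% to 47.8% in WT and 37.7% to 42.4% in knockout on day 7, so that this ratio was higher on day 7 while that to Krt14 in WT was lower. The ratios were chosen after their values were seen.

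Col23a1, another transmembrane collagen, was at 9.66, 8.82 and 8.71 FPKM in WT and 6.54, 6.36 and 5.81 in knockout on day 0, and at 5.09, 9.43 and 8.75 in WT and 7.68, 10.2 and 8.79 in knockout on day 7. Its knockout values were below WT on day 0 without overlap and overlapped with WT on day 7, and the genotype difference on day 0 was -0.64 (SE 0.186, edgeR adjusted p = 0.0681). Col13a1, a transmembrane collagen of cell adhesion sites, was the only tested member with a value above 0 in the genotype comparison on day 0. It was at 1.09, 1.05 and 0.937 FPKM in WT and 1.48, 1.296 and 1.74 in knockout, separate ranges with a log2 difference of 0.44 (edgeR adjusted p = 0.338).

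Of the fibril-forming chains kept by the rule, Col27a1 was tested. It was at 1.66, 1.48 and 1.69 FPKM in WT and 1.53, 1.099 and 0.304 in knockout on day 0, and at 2.67, 3.59 and 2.78 in WT and 2.555, 3.61 and 2.13 in knockout on day 7, with day 7 above day 0 without overlap in both genotypes. Its log2 change was 0.71 in WT (edgeR adjusted p = 0.324) and 1.31 in the knockout (adjusted p = 0.183). With edgeR the WT change was called when only the groups compared were fitted or without knockout day 0 replicate 3. Limma with a pseudocount of 1 called the knockout change. The other alternatives called neither. The 14 members under the threshold included 7 that stayed under 0.5 FPKM in every sample, among them Col10a1 of hypertrophic cartilage and Col9a1 of cartilage fibrils, which are listed at 0 in some libraries. Nearest the threshold were Col4a4 at 0.892, Col6a5 at 0.888 and Col24a1 at 0.768 FPKM below it, and Col28a1 at 1.21 and Col20a1 at 1.20 above it.

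Genes that act with these collagens were taken from lists fixed with earlier results of these data known. Their counts stand beside 5.78% of all genes called between genotypes on day 0, 13.1% in WT over time and 1.46% in the knockout over time, and since the lists hold only 7 to 21 tested genes the counts are given as descriptions. Of 16 tested basement membrane partners, 1 fell and 0 rose in the knockout on day 0: Sparc, a collagen-binding matricellular protein (log2 -2.11, SE 0.478, edgeR adjusted p = 0.0400). In WT over time 3 of the 16 rose and 0 fell: the laminin chain Lamb1 (1.025), the nidogen Nid2 (1.45) and Pxdn (1.58), the peroxidase that crosslinks type IV collagen. In the knockout over time 1 rose, Nid2 (log2 2.33, SE 0.361, edgeR adjusted p = 0.0216). The list's medians were -0.97 on day 0 between genotypes, -0.16 in WT over time and 0.58 in the knockout over time.

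Of 11 tested collagen receptors, the integrin Itga2 fell (log2 -1.34, edgeR adjusted p = 0.0326) and the syndecan Sdc1 rose (0.62, adjusted p = 0.0478) in the knockout on day 0. In WT over time 2 fell, the collagen-binding kinase Ddr1 (-1.22) and Itga2 (-1.07), and in the knockout 1 fell, Sdc1 (-0.81). Of 21 tested folding and modification genes, 2 fell in the knockout on day 0: Mia3 (log2 -0.88, edgeR adjusted p = 0.0288), which loads large cargo such as collagen VII into export vesicles, and the procollagen protease Adamts14 (-2.40, adjusted p = 0.0373). In WT over time 3 of them rose and 2 fell, among them the prolyl hydroxylases P4ha3 (3.07, edgeR adjusted p = 0.0205) and P3h2 (-1.53, adjusted p = 0.0166). P4ha3 also rose in the knockout (4.83, edgeR adjusted p = 0.0224). For comparison, 1 of the 7 tested fibrillar collagens left out by the rule fell in the knockout on day 0, Col1a2 (log2 -2.43, edgeR adjusted p = 0.0480), and 1 rose over time in both genotypes, Col11a1 (2.30 in WT and 1.78 in the knockout). The list's medians in the same comparisons were -1.82, 0.83 and 1.40, where the non-fibrillar members had -0.96, -0.03 and 0.73.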

How the data were processed

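Poly(A) RNA of 12 dermis samples was sequenced on strand-marked paired-end libraries with molecular identifiers, per the labels' protocols. The authors deposited 1 table with a whole-number count and an FPKM value (a level scaled to transcript length and library depth) for each gene and sample, per the file headers. The submitters' processing notes name cutadapt 1.9, HISAT2 2.0.4, UMI-tools, StringTie 1.3.4d, DESeq2, edgeR and GRCm38, without roles or order, and strand use in counting is not given in the sources used here. In the deposited counts, multiples of 4 were overrepresented (3.16 to 4.05 times at a count of 4), and an FPKM of 0.0001 stood for a count of 0 and was set to 0. No sample column was left unused.

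Groups and replicate numbers came from the sample titles. GENCODE M21 (GRCm38) named 55141 of 55401 gene IDs. Promoters came from RefSeq (GRCm38.p6), matched by symbol. The test was edgeR 4.0.16 (R 4.3.3), quasi-likelihood, TMM scaling, 4 group means over the 12 samples, Benjamini-Hochberg over 14313 genes with a mean of at least 1 FPKM, two-sided. A check on simulated data gave every gene and group the same spread, so it does not cover groups of unequal spread. With nothing saying how many mice each library holds, p-values measure the spread between these samples. FPKM is used for levels, and differences are on the log2 scale of the fit. Levels in FPKM and comparisons of their ranges do not carry the TMM scaling of the fit. Alternatives were DESeq2 1.42.0, limma 3.58.1 on log2(FPKM + 1) and log2(FPKM + 0.1), total-count scaling, no filter, only the groups compared, a replicate block, counts divided by 4 and leaving out each library.

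Members, families, marker and partner lists were chosen with earlier results of these data known. By rule, tests were given for all called members of a comparison or, under 3 called, for the 3 with the smallest p. Per-sample values were given for these members and for the highest member of each family except Col26a1, which was at 0.0459 to 0.754 FPKM. They were also given, chosen after their values were seen, for Col6a3, Col8a2, Col13a1 and Col14a1. Tests of other members and comparisons are also given, and these were chosen with their values known. Of partner lists, up to 3 genes per comparison were named. Member genes overlap others on the opposite strand, such as Col18a1 with Slc19a1, and their counts are uncertain to that extent.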

Additional observations from a re-analysis of the deposited data

How the results depend on the processing

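In the genotype comparison on day 0, edgeR called 2 members, DESeq2 6 (with 19.6% of all genes), the fit with no filter on low values 0 (0.802%) and the fit of only the groups compared 0 (0.133%), and leaving out single libraries gave 0 to 7. In WT over time the count was 4, with DESeq2 12 (where it called 25% of all genes), with limma 8 (pseudocount 1, 13.4%) and 9 (pseudocount 0.1, 14%), with total-count scaling 8 (15.5%), and 2 to 9 without single libraries. In the knockout over time it was 2, with DESeq2 8 (9.92% of all genes), with limma 8 and 7 (pseudocounts 1 and 0.1, 5.41% and 5.4%), with total-count scaling 6 (5.22%), with only the groups compared 0 (0.622%), and 0 to 6 without single libraries. The genotype comparison on day 7 and the difference between the time courses gave 0 under every alternative run. On day 0 DESeq2 added Col8a1, Col16a1, Col23a1 and Col28a1, and in WT over time Col14a1 and Col17a1 were among the members it added. No named log2 change turned direction, while the median over members in WT over time ran from -0.10 to 0.37. The cause of the moves was not tested.

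A replicate block was fitted because the groups share replicate numbers. Whether the numbers pair the samples cannot be settled from correlations among 3 libraries a group. Same-numbered samples correlated at -0.232 to 0.426 over the 4 comparisons of groups, and in none was every pair above 0.1. In WT over time all 6 samples still correlated best with their own number (0.0232 to 0.0869), as they did between knockout day 0 and WT day 7, groups not compared, where the 3 pairs were at 0.124 to 0.222; this is a hint from the data, not from the design. With the block, 2 members were called between genotypes on day 0 (6.17% of all genes), 2 in WT over time (Col12a1 and Col4a5, 10.2%) and 3 in the knockout over time (Col14a1, Col4a2 and Col8a1, 2.03%). Adjusted p with edgeR was then 0.0536 for Col4a6 and 0.0705 for Col8a1 in WT, and 0.0519 for Col12a1 in the knockout. It called 0 on day 7 and 0 for the difference between time courses.

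With 3 libraries a group, a call near the threshold depends on which libraries enter. Depth limits Col28a1 most among tested members, with 10 counts in its lowest library.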

Other observations

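Members under the threshold were fitted without the filter on low values, with edgeR and Benjamini-Hochberg adjustment over 34303 genes. In WT from day 0 to day 7, Col24a1, a fibril-forming chain, rose by a log2 change of 2.34 (adjusted p = 0.00974). It was at 0.466, 0.177 and 0.298 FPKM on day 0 and at 1.95, 2.21 and 1.13 on day 7, without overlap. Col6a4, a type VI chain, rose by 3.505 (edgeR adjusted p = 0.0174) from 0.00770 to 0.0281 FPKM up to 0.118 to 0.257, where its counts over all 12 samples were 4 to 152. In the knockout the values over time were 1.88 for Col24a1 (edgeR adjusted p = 0.0592) and 1.52 for Col6a4 (adjusted p = 0.375). Both lie outside the tested set, and they were chosen after their values were seen. Col4a3, whose gene starts head to head with Col4a4, had -2.02 between genotypes on day 0 (edgeR adjusted p = 0.0915) and -1.93 in WT over time (adjusted p = 0.0616).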
